A study of Mus musculus with 2 samples.

Results

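Heat shock proteins are molecular chaperones, and 10 of their genes were followed in mouse embryonic stem cells: the small heat shock proteins Cryab, Hspb1 and Hspb8, the HSP70 genes Hspa1a, Hspa1b and Hspa8, the HSP70-like Hsph1, the J protein Dnajb1, and the cytosolic HSP90 genes Hsp90aa1 and Hsp90ab1. They were taken by symbol from the 24061 rows of the deposited count table, and all 10 were found. They were chosen by family membership with the control and Pc4-OE counts of this same comparison in view, so those counts, levels and ratios are a description and carry no test. The cells were C57BL/6 embryonic stem cells grown with leukaemia inhibitory factor on embryonic fibroblast feeders, and 1 poly(A) RNA library was labelled control (passages 17 to 23) and 1 was labelled Pc4-OE (passages 24 to 37). Pc4 is the transcriptional coactivator encoded by Sub1, delivered with a Venus-marked lentivirus. The design text names 3 overexpressing lines grown from picked colonies, and the labels do not say which of them gave the library. Passage and label cannot be told apart, and the sources used here do not say whether feeder cells were removed before extraction.

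With 1 library per label there is no replicate check, and every difference is one between 2 libraries. Sub1 itself went against the label: it had 5522 counts under the control label and 2432 under the Pc4-OE label, 2.26-fold lower in the second, so each library is called by its label and each direction is that of the labels. The libraries held 10571463 and 10194783 counts. Levels are CPM (counts per 1000000 counts of the library), scaled by the trimmed mean of M values, log2 ratios are Pc4-OE over control, and each interval is the exact 95% binomial interval of the 2 counts, which covers counting error only. A gene was said to meet the 2-fold rule if it differed by 2-fold or more with an interval that did not include 1. Stem cell markers were present in both libraries: 15 of 15 were measured, with a summed level of 7665.5 CPM in the control-labelled and 5719.0 CPM in the Pc4-OE-labelled library. Of the 15, 9 had a ratio below 1 and 6 above, where 50.7% of all measured genes lay below. The 2-fold rule was met downward by 3 (4.02% of all measured genes) and upward by none. The 3 were L1td1 at a log2 ratio of -2.05, Dppa2 at -1.30 and Lin28a at -1.01, and 2 remained with library totals. All 24 fibroblast markers had a ratio above 1, with none at 0, and their summed level was 8187.1 and 20408.8 CPM. All 17 macrophage markers had a ratio above 1, with none at 0, and a summed level of 231.4 and 653.0 CPM. Laptm5 alone made up 109.6 and 131.6 CPM of these sums. Some of the other macrophage markers had few counts under the control label, such as C1qc with 8 and Tyrobp with 12. In bulk RNA, a change in the share of a cell type and a change of RNA per cell cannot be told apart. The part of these cells in the results that follow was not tested.

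As background, small heat shock proteins form oligomers that hold unfolding proteins without using ATP. HSP70 binds and releases clients through an ATP cycle that J proteins start and that HSP110 proteins and BAG proteins reset by exchanging nucleotide. HSP90 finishes the folding of kinases, receptors and other clients with a set of co-chaperones. Hspa8 and Hsp90ab1 are the constitutive forms, whereas Hspa1a, Hspa1b and, in part, Hsp90aa1 are induced by stress through heat shock factor 1 (HSF1), which binds inverted repeats of the letters GAA in promoters. Embryonic stem cells are known for high levels of constitutive chaperones.

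Among the 10 genes, Cryab stood far above a ratio of 1 and the abundant cytosolic chaperones lay on the low side. All 10 had at least 20 counts over both libraries, as did 14213 genes of the table. Of the 10, 1 met the 2-fold rule upward (Cryab) and 2 downward (Hspa8 and Hsph1), where 11.8% of all measured genes met it upward and 4.02% downward. The ratio was below 1 for 6 of the 10, against 50.7% of all measured genes. Its interval lay wholly below 1 for 5 (33.1% of all genes) and wholly above 1 for 2 (31.2%). The median log2 ratio of the 10 was -0.32, and that of all measured genes was -0.01. Summed, the 10 genes took 1.10% of the counts in the control-labelled library (interval 1.09 to 1.10) and 0.698% in the Pc4-OE-labelled one (0.693 to 0.703). Hsp90ab1 alone supplied 65.6% and 65.7% of those counts.

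**Figure D1:**
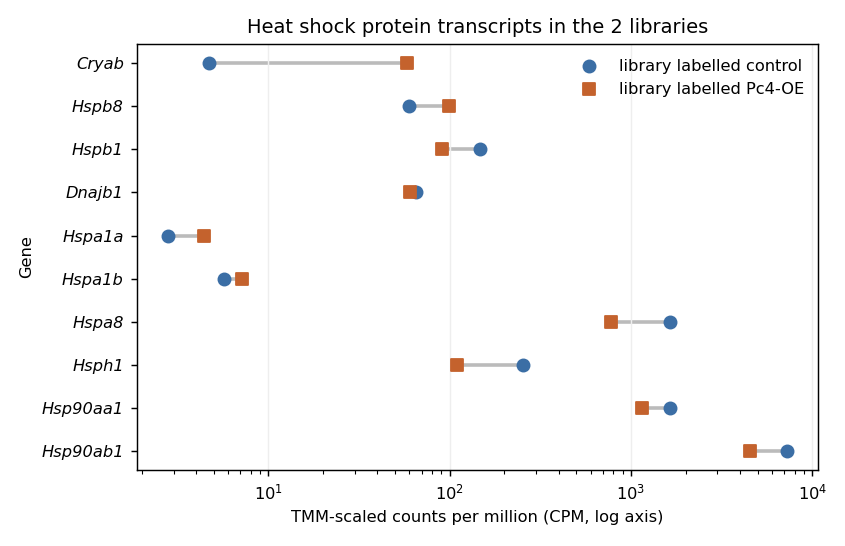
TMM-scaled level of each of the 10 heat shock genes (CPM, log axis) under the control label (circles) and under the Pc4-OE label (squares), 1 library each, with no error bars. Cryab went from 4.71 to 57.9 CPM, while Hspa8, Hsph1, Hspb1 and both HSP90 genes lay lower in the library labelled Pc4-OE.

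Promoters are shown because HSF1 acts through letters that can be read there. RefSeq promoter windows of GRCm38.p6, 250 bases before to 50 after a start, matched 6 of the 10 genes: Hspb1, Hspb8, Hsph1, Dnajb1, Hspa1a and Hspa1b. Both strands were searched for GAANNTTC and TTCNNGAA, each its own reverse complement, and for 3 units in a row, GAANNTTC followed by NNGAA or TTCNNGAA followed by NNTTC, which contain those pairs. Of 32851 windows of all genes, 15.1% held either pair and 0.603% held 3 units. Of the 6 genes, 5 held a pair and 1, Hsph1, held 3 units. The background is a share of windows, which covered 27025 genes, whereas these counts are of genes, and Hsph1 and Dnajb1 had more than 1 window. The share of all genes with a pair was not counted. The last 150 bases before the start of a window follow on the strand of each gene, with matches to either pair in capitals. They are for Hspb1 (chr5:135887769-135887918, plus strand), Hsph1 (chr5:149636337-149636486, minus strand, the outer of 2 windows), Hspa1a (chr17:34972157-34972306, minus strand) and Hspa1b (chr17:34959239-34959388, minus strand). The printed Hsph1 bases lie inside the RefSeq span of the gene, which reaches chr5:149636498, so the start of that window is an inner one.
Hspb1: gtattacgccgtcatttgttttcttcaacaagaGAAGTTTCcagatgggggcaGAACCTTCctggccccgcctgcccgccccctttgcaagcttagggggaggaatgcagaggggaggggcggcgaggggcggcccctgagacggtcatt
Hsph1: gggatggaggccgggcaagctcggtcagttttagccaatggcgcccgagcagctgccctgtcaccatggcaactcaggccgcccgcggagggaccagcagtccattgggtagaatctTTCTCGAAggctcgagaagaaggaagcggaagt
Hspa1a: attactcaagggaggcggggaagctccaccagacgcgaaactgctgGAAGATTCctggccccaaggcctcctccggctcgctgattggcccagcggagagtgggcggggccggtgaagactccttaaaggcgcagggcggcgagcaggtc
Hspa1b: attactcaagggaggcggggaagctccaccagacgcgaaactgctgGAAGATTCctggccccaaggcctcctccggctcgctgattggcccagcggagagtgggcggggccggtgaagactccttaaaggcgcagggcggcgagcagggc

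The printed stretches of Hspa1a and Hspa1b are identical at 149 of 150 bases, and both hold GAAGATTC from -104 to -97, counted back from the start base. Hspb1 holds GAAGTTTC from -117 to -110 and GAACCTTC from -97 to -90. Counted from the start of its outer window, inside the RefSeq gene span, Hsph1 holds TTCTCGAA from -33 to -26. Its 3 units, TTCTGGAAAGTTC, lie 36 to 48 bases after that start. Hspb8 has its only match, GAAGTTTC, 2 to 9 bases after the start, and no match was found in the windows of Dnajb1. Genes with a match had log2 ratios from -1.20 (Hsph1) to 0.74 (Hspb8), on both sides of 0. A match is a description of letters and not a binding site.

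Cryab encodes alphaB-crystallin, a small heat shock protein abundant in lens, heart and skeletal muscle that also binds intermediate filaments. It had 49 counts (4.71 CPM) under the control label and 599 counts (57.9 CPM) under the Pc4-OE label. The ratio was 12.3-fold (interval 9.18 to 16.8), at percentile 99.8 of all measured genes. Cryab ranked 11394th by count among all rows of the control-labelled library and 4407th in the other. Hspb8, a small heat shock protein that works with the co-chaperone BAG3 in autophagy of misfolded proteins, had 620 and 1030 counts (59.5 and 99.5 CPM). It was 1.67-fold higher under the Pc4-OE label (1.51 to 1.85), short of the 2-fold rule. Hspb1, which encodes HSP25, the mouse counterpart of human HSP27, went the other way, with 1528 and 939 counts (146.7 and 90.7 CPM). Its log2 ratio was -0.69 (-0.81 to -0.58).

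The makeup of the small heat shock transcripts therefore differed between the libraries more than their sum. Together Cryab, Hspb1 and Hspb8 stood at 211.0 CPM under the control label and 248.1 CPM under the Pc4-OE label, a log2 ratio of 0.23 (0.15 to 0.32). The control-labelled library held 31.2 Hspb1 counts for each Cryab count, and the Pc4-OE-labelled library 1.57. Of the counts of Hspb8 and Cryab together, Hspb8 held 92.7% (90.4 to 94.5) and 63.2% (60.8 to 65.6). These shares do not depend on the scaling between libraries.

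The rest of the small heat shock family was scarce. Of 7 other family genes, only Hspb6 and Hspb7 had enough counts to be measured. Hspb7, a cardiac and muscle form, had 8 and 26 counts, a log2 ratio of 1.71 (0.52 to 3.06). Hspb6, known as HSP20, had 24 and 38 counts, and its interval included 1 (log2 ratio 0.67, -0.10 to 1.47). Hspb2 lies head to head with Cryab, and the GENCODE M21 gene models of these opposite-strand genes overlap by 1030 bases. In RefSeq coordinates the span of Cryab (chr9:50745951-50756636) holds all of Hspb2 (chr9:50751072-50752354). Hspb2 had 3 and 11 counts, with an interval of the log2 ratio from -0.04 to 4.36. There were 16.3 Cryab counts per Hspb2 count in the control-labelled library and 54.5 in the other. Whether counting used strand is not given in the sources used here, so reads in the overlap may have gone to either gene or to neither. Hspa1a overlaps the opposite-strand gene model Gm20481 by 2225 bases, with the same limit.

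Cryab is also expressed by cells other than stem cells. In the direction of its ratio, 18 of 24 fibroblast markers met the 2-fold rule upward and none downward (median log2 ratio 1.29). Of all measured genes, 11.8% met it upward and 4.02% downward. When a biological coefficient of variation of 0.4 was assumed, which widens each interval, 8 of the 24 fibroblast markers met it upward. The fibroblast markers included Lox, a collagen cross-linking enzyme, at 2.43, Fbln2, a matrix glycoprotein, at 2.41 and Acta2, smooth muscle actin, at 2.54. Of 17 macrophage markers, 16 met the rule upward (median 2.29), and 13 with the assumed coefficient of variation. Among the 17 were Ctss, a lysosomal protease, at 3.11 and Tyrobp, an immune adaptor, at 3.38. The log2 ratio of Cryab, 3.62, was above that of all 24 fibroblast markers and of 16 of the 17 macrophage markers, the exception being the complement gene C1qc at 3.68. The 12 lens markers summed to 5.57 CPM under the control label and 4.73 CPM under the Pc4-OE label. Of these, 3 were measured, 2 (Crybb2 and Lgsn) had no count in either library, and the alphaA-crystallin gene Cryaa had 2 counts and 0. Of the 3, Mip met the rule downward with 34 and 9 counts (log2 ratio -1.91), and it made up 3.27 and 0.870 CPM of the sums. It no longer met the rule with the assumed coefficient of variation. The other 2 had ratios above 1 with intervals that included 1, and the median log2 ratio of the 3 was 1.11. The 18 striated muscle markers summed to 127.6 and 110.4 CPM, of which the calcium channel gene Ryr1 made up 51.6 and 48.9 CPM. Of these, 11 were measured and 1 (Csrp3) had no count in either library. The rule was met upward by 1, Acta1, skeletal actin, with 8 and 117 counts, and downward by 2, Ttn at -2.39 and Myh3 at -1.03, of which 1 remained with library totals or with the pseudocount.

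With 2 libraries, likeness of pattern to Cryab can only mean a near log2 ratio. Among genes averaging 5 CPM or more, the 3 nearest were Ankrd1 (3.64, 13 and 161 counts), C1qc (3.68, 8 and 102 counts) and Wfdc17 (3.71, 8 and 104 counts). All 3 rest on fewer control counts than Cryab.

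The HSP70 genes divided by form. Hspa8 encodes HSC70, the constitutive cytosolic HSP70. It had 17096 counts (1641.8 CPM) under the control label and 8077 counts (780.4 CPM) under the Pc4-OE label. It was 2.10-fold lower in the latter (interval of the ratio 0.463 to 0.488), and its rank by count moved from 23rd to 104th. The stress-inducible Hspa1a had 29 and 46 counts (2.78 and 4.44 CPM), and its near-identical copy Hspa1b, whose printed promoter stretch differs at 1 base, 59 and 74 counts (5.67 and 7.15 CPM). Neither ratio could be told from 1 at this depth and scaling: 1.60 (0.981 to 2.63) for Hspa1a and 1.26 (0.884 to 1.81) for Hspa1b. With library totals the interval of the log2 ratio of Hspa1a, 0.02 to 1.44, just excluded 0. Summed, the inducible pair had 88 and 120 counts, a log2 ratio of 0.46 (0.05 to 0.87). Of the counts of the pair and Hspa8 together, the pair held 0.512% in the control-labelled library (0.411 to 0.631) and 1.46% (1.22 to 1.75) in the other. The inducible forms were thus a small fraction in both libraries, and a larger one where Hspa8 was lower.

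Gene copies bear on these counts. Of all stretches of 50 bases in the longest coding transcript, 73.2% were shared with another GENCODE gene for Hspa8, all of them with pseudogenes (11 of 11 genes), and 60.3% for Hspa1a and 62.3% for Hspa1b, mostly with each other. The share was 58.5% for Hsp90aa1 (4 pseudogenes), 51.6% for Hspb1 (1 pseudogene), 4.49% for Hsp90ab1 and 0.407% for Dnajb1, and 0 for Cryab, Hspb8 and Hsph1. How reads that map to several places were counted is not given in the sources used here. If they were dropped, levels of Hspa8, Hspa1a, Hspa1b, Hsp90aa1 and Hspb1 are understated in both libraries, and the split between Hspa1a and Hspa1b is uncertain.

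Relatives of HSP70 outside the 10 went both ways. Of 11 other HSP70 and HSP110 genes, all measured, 1 met the 2-fold rule upward (Hspa4l), 1 downward (Hspa1l) and 9 did not meet it. Of all measured genes, 11.8% met it upward and 4.02% downward. The median log2 ratio of the 11 was 0.21. Hspa5, the endoplasmic reticulum (ER) form BiP, stood at -0.04 and Hspa9, the mitochondrial form mortalin, at -0.14. Hspa2, a form abundant in testis, had 58 and 111 counts and stood at 0.95 (0.47 to 1.43). Hspa1l, which neighbours Hspa1a, had 25 and 11 counts and a log2 ratio of -1.18 (-2.35 to -0.10). With a pseudocount of 0.5 CPM it no longer met the rule.

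Hsph1 encodes HSP105, an HSP110 protein that serves as nucleotide exchange factor for HSP70. It had 2635 counts (253.1 CPM) under the control label and 1139 counts (110.0 CPM) under the Pc4-OE label. It was 2.30-fold lower in the latter (interval of the ratio 0.405 to 0.466), the lowest ratio of the 10. Its paralogs differed from each other: Hspa4, the main HSP110 form, had 11038 and 7386 counts (log2 ratio -0.57), while Hspa4l had 100 and 212 counts and was 2.13-fold higher (log2 ratio 1.09, 0.74 to 1.45). Of the counts of Hsph1 and Hspa4 together, Hsph1 held 19.3% in the control-labelled library (18.6 to 19.9) and 13.4% (12.6 to 14.1) in the other.

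Dnajb1 encodes HSP40, the J protein partner of inducible HSP70 and itself a classical HSF1 target. There were 680 Dnajb1 counts (65.3 CPM) under the control label and 626 (60.5 CPM) under the Pc4-OE label. The ratio was 0.926 (0.830 to 1.03), the closest to 1 of the 10. Dnaja1, another J protein of the cytosol, stood at 1067 and 547 counts, a log2 ratio of -0.96 (-1.11 to -0.81). Dnajb1 therefore held 38.9% of the counts of these 2 genes in the control-labelled library (36.6 to 41.3) and 53.4% (50.5 to 56.3) in the other. Their paralogs Dnaja4 (72 and 157 counts, log2 ratio 1.13) and Dnajb4 (126 and 217 counts, 0.79) lay above 1 in ratio. Of 16 other class A and B J protein genes, 13 were measured, with a median of -0.05. Of these 13, 1 (Dnaja4) met the 2-fold rule upward and none downward, where 11.8% and 4.02% of all measured genes did.

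**Figure D2:**
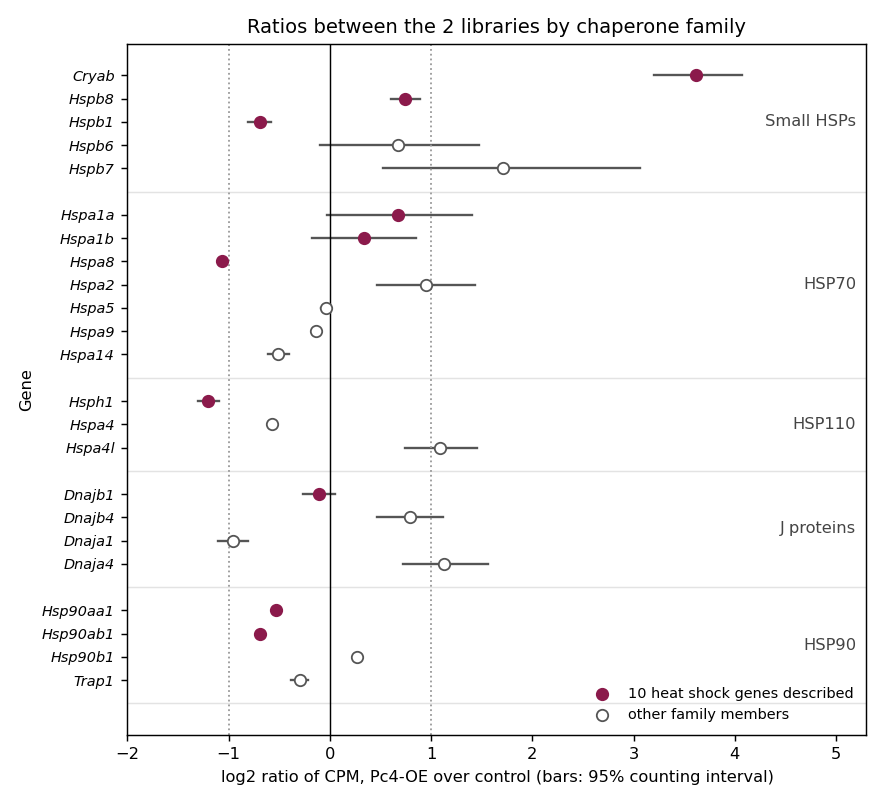
Log2 ratio of CPM (Pc4-OE over control) with the 95% counting interval, 1 library per label. Filled points are the 10 heat shock genes and open points a selection of other measured genes of the same families. Dotted lines mark 2-fold. In every group drawn, genes lay on both sides of 0, and the ratios ran from -1.20 for Hsph1 to 3.62 for Cryab.

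The cytosolic HSP90 genes were both lower, by less than 2-fold. Hsp90ab1, the constitutive HSP90 beta, was the 2nd most counted gene of the control-labelled library and the 4th of the other. It had 75975 counts (7296.2 CPM) and 46734 counts (4515.4 CPM), and its ratio was 0.619 (0.612 to 0.626). Hsp90aa1, HSP90 alpha, had 17183 counts (1650.2 CPM) and 11864 counts (1146.3 CPM), a ratio of 0.695 (0.679 to 0.711). The alpha form held 18.4% of the counts of the pair in the control-labelled library (18.2 to 18.7) and 20.2% (19.9 to 20.6) in the other, a slightly larger share. HSP90 genes of other compartments differed in sign: Hsp90b1, the ER form GRP94, had a log2 ratio of 0.27 (0.23 to 0.30) and the mitochondrial Trap1 one of -0.30 (-0.38 to -0.22).

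Abundant genes as a whole also lay slightly low. Among 219 genes of 500 CPM or more on average the median log2 ratio was -0.16 (order-statistic interval across genes -0.25 to -0.07), and 62.6% had a ratio below 1. Hspa8 (-1.07), Hsp90ab1 (-0.69) and Hsp90aa1 (-0.53) were below that median. Among 2646 genes with a mean below 5 CPM, the class of Hspa1a, the median was 0.27.

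**Figure D3:**
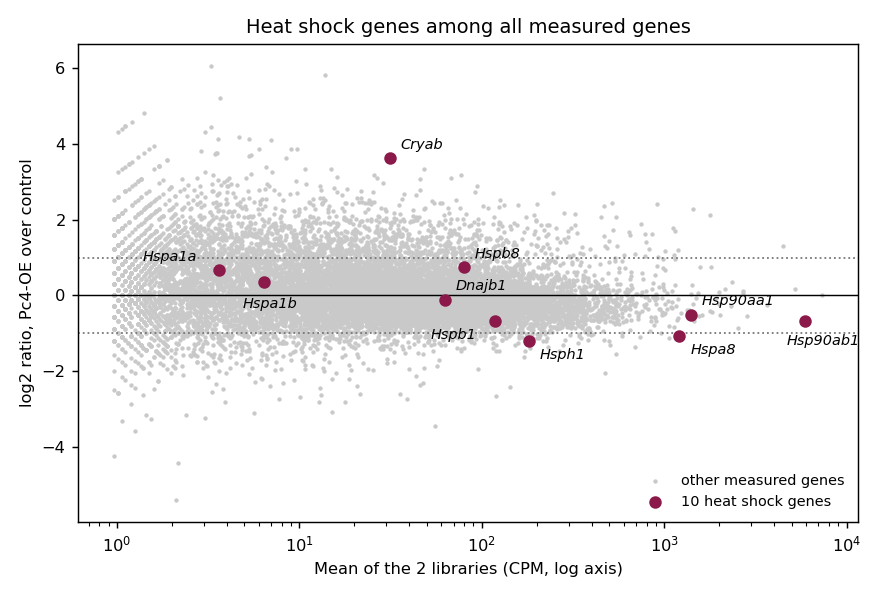
Log2 ratio (Pc4-OE over control) against the mean level of the 2 libraries (CPM, log axis) for all 14213 measured genes (grey) and the 10 heat shock genes (coloured); dotted lines mark 2-fold. Cryab lies at the upper edge of the cloud at its level, and the 3 most abundant heat shock genes lie below the median of -0.16 of genes of at least 500 CPM.

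Levels of different genes can be compared only per length, here as CPM per kilobase of exon. In the library labelled control the order was Hsp90ab1 (2895.3), Hspa8 (685.8), Hsp90aa1 (488.1), Hspb1 (142.3), Hsph1 (59.9), Hspb8 (32.8), Dnajb1 (20.4), Cryab (3.64), Hspa1b (2.02) and Hspa1a (0.939). In the library labelled Pc4-OE it was Hsp90ab1 (1791.8), Hsp90aa1 (339.0), Hspa8 (326.0), Hspb1 (88.0), Hspb8 (54.8), Cryab (44.8), Hsph1 (26.1), Dnajb1 (18.9), Hspa1b (2.55) and Hspa1a (1.50). Cryab thus moved from the 8th to the 6th place, past Hsph1 and Dnajb1. With 1 library per label there is no spread against which to test neighbours in either order. The full exon length was used, and the genes differ in the share of stretches found in other genes. That share was 73.2% for Hspa8, 58.5% for Hsp90aa1 and 4.49% for Hsp90ab1. If multiply mapped reads were dropped, both orders are affected unequally.

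HSP90 works with co-chaperones that load clients and set its ATPase cycle. Of 20 co-chaperone genes, all measured, 19 had a ratio below 1 and 16 an interval wholly below 1, but none met the 2-fold rule in either direction. Over all genes 50.7% had a ratio below 1 and 33.1% an interval wholly below 1, and of genes of 50 to 500 CPM 60.2% had a ratio below 1. Their median log2 ratio was -0.34 and their range -0.61 to 0.04. Ahsa1, the activator of the HSP90 ATPase, stood at -0.59, Chordc1, a co-chaperone induced by heat, at -0.60, Cacybp at -0.47 and Stip1, the HOP adaptor between HSP70 and HSP90, at -0.43. Of 14 partners of HSP70, with a median of -0.17, 1 met the rule upward and none downward, where 11.8% and 4.02% of all genes did. The 1 was Hspa4l, already counted among the HSP70 and HSP110 genes. Grpel1, the exchange factor of mitochondrial HSP70, stood at -0.80, Stub1, the CHIP ubiquitin ligase, at -0.17, and Bag3, the partner of Hspb8, at 0.87 (249 and 452 counts, 0.64 to 1.10).

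The heat shock factors Hsf1 and Hsf2 differed little. Hsf1, the main regulator of the heat shock response, had 422 and 466 counts and a log2 ratio of 0.15 (-0.04 to 0.35), and Hsf2 stood at -0.26 (-0.44 to -0.08). Of 6 measured genes in the list of heat shock factors and their binding proteins, none met the 2-fold rule. Hsf2bp, a binding partner of HSF2 with a role in meiosis, was the lowest at -0.74 (-0.92 to -0.57), and Hsbp1 stood at 0.40 (0.26 to 0.55). Known HSF1 targets outside the 10 were mixed. Of 17, all measured, 1 met the rule upward (Hspa4l) and 1 downward (Hspd1), where 11.8% and 4.02% of all genes did. A ratio below 1 was found for 11 of the 17 (50.7% of all genes), and the list's median was -0.34. Many of the 17 are also in the HSP90 co-chaperone, HSP70, J protein, HSP70 partner or mitochondrial lists, so this is not a separate set of genes. Hspd1, the mitochondrial chaperonin HSP60, had 8250 and 3903 counts and was 2.10-fold lower, and its partner Hspe1 stood at -0.50. Serpinh1, the collagen chaperone HSP47, was at 0.39, above 0 like the fibroblast markers but below the lowest of them (0.67). A link to them was not tested.

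Chaperones of other compartments were counted in the same way, and the lists were not tested against each other. Of 10 mitochondrial chaperones and proteases, all measured, 10 had a ratio below 1, 9 with an interval wholly below 1, where 50.7% and 33.1% of all genes did. Only Hspd1, also counted among the HSF1 targets, met the 2-fold rule, downward, where 4.02% of all genes did. The list's median was -0.27, with the protease subunit Clpp at -0.84. Of 14 ER chaperones, all measured, 10 had a ratio above 1, 7 with an interval wholly above 1 (31.2% of all genes) and 1 with an interval wholly below it. None met the rule, and the middle value was 0.14, with the J protein Dnajc3 at 0.55 and calreticulin (Calr) at 0.29. Hspb8 and Bag3 serve an autophagy route that clears damaged proteins. Of 11 of its genes, all measured, 3 met the rule upward, where 11.8% of all genes did, and none downward, with a median of 0.33. With the assumed coefficient of variation of 0.4 the 3 became 0. The 3 were Gabarapl1, an ATG8 family protein (log2 ratio 1.25), Flnc, filamin C, a client of BAG3 (1.22) and Sqstm1, the cargo receptor p62 (1.05). The fibroblast markers lay in the same direction, and a link was not tested.

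**Figure D4:**
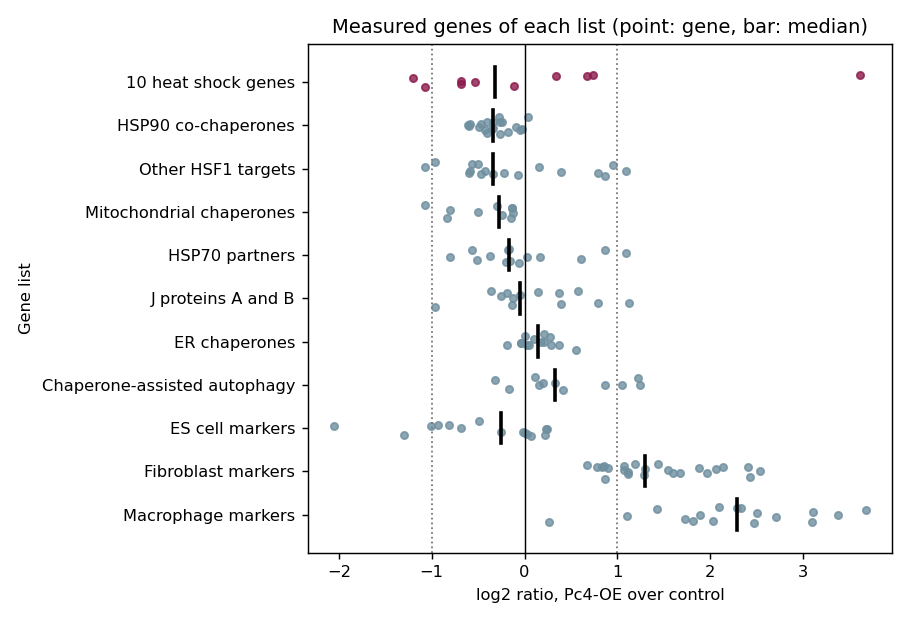
Log2 ratio (Pc4-OE over control) of each measured gene (points, jittered vertically) in the 10 heat shock genes and 10 other lists, with the list median (bars) and dotted lines at 2-fold. HSP90 co-chaperones (median -0.34) lie close together below 0, ER chaperones (0.14) around it, and fibroblast (1.29) and macrophage markers (2.29) above it.

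Position in the genome was compared for each of the 10 genes with RefSeq coordinates on GRCm38, the assembly behind mm10. Hspb8 (chr5:116408491-116422864), Hspb1 (chr5:135887919-135889563) and Hsph1 (chr5:149616843-149636498) lie on chromosome 5, which had the lowest median of the chromosomes compared, -0.30 over 896 genes (-0.36 to -0.25). Hspb8 was higher there at 0.74, whereas Hspb1 at -0.69 and Hsph1 at -1.20 were lower than the median. Within 1 Mb of Hspb1 the median of 38 genes was -0.38 (-0.65 to 0.03), and around Hspb8 it was -0.30 over 18 genes (-0.51 to 0.06). Around Hsph1 it was 0.07 over 11 genes (-0.86 to 0.90), so each of these intervals included 0. The last value turned with the settings: it was -0.53 over 45 genes within 5 Mb, and -0.53 over 9 genes with a minimum of 100 counts. Without these 3 genes, the median of the other 7 was -0.11. Cryab (chr9:50745951-50756636) and Hspa8 (chr9:40801276-40805202) share chromosome 9, whose median was -0.02. The 16 genes within 1 Mb of Cryab had a median of -0.23 (-0.54 to 0.36), and none reached its ratio, the highest being at 2.23. With no minimum of counts that median was -0.02 over 20 genes. Hspa1a, Hspa1b and Hsp90ab1 lie on chromosome 17 (median -0.05), Hsp90aa1 on 12 (0.05) and Dnajb1 on 8 (-0.05 over the other genes).

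An assumed biological coefficient of variation of 0.4 widened the intervals, and only Cryab then still met the 2-fold rule (interval of the log2 ratio 1.97 to 5.27). Under it the intervals of Hspa8 (-2.67 to 0.53) and Hsph1 (-2.80 to 0.40) included 0.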

How the data were processed

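The authors deposited raw read counts by gene as whole numbers, with a column for each library. Per the submitters' processing notes, STAR 2.4.1c and featureCounts were used with build mm10. Neither the annotation nor how strand and multiply mapped reads were handled is given in the sources used here. Columns were matched to samples by title, and the table had 0 further sample columns.

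Counts were scaled to CPM by TMM (edgeR 4.0.16) and no pseudocount was added. Genes needed 20 counts over both libraries. Intervals are Clopper-Pearson at 95%. With 1 library per label no p-value was computed. Coordinates came from RefSeq genes of GRCm38.p6, which matched 23973 gene IDs (99.6%) and all 10 genes. Exon lengths and overlaps came from GENCODE M21. The steps were tested on simulated counts.

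The 10 genes and all lists were chosen with earlier results of these data known. The genes named are the 10, Sub1, up to 3 genes per list with the interval bound farthest from 1, a fixed set of relatives, and the 3 genes nearest to Cryab. Serpinh1, Cryaa, Crybb2, Lgsn, Csrp3, Ryr1, Laptm5 and Actb were named after their values were seen. Alternatives were library totals, DESeq2 (1.42.0) size factors, a pseudocount of 0.5 CPM, an assumed biological coefficient of variation of 0.4, a minimum of 100 counts, no minimum, and a 5 Mb window for neighbours.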

Additional observations from a re-analysis of the deposited data

How the results depend on the processing

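The 10 log2 ratios kept their sign with library totals, DESeq2 size factors and a pseudocount of 0.5 CPM, and the same 3 genes, Cryab, Hspa8 and Hsph1, met the 2-fold rule under those settings. With the assumed biological coefficient of variation of 0.4, the number of the 10 that were at least 2-fold lower went from 2 to 0, because intervals are wider by construction. It also took the fibroblast markers from 18 to 8 upward, cytoskeletal genes from 5 to 2 and autophagy genes from 3 to 0. The single calls in the other small heat shock, HSP70, J protein, HSP70 partner, HSF1 target, mitochondrial and lens lists went to 0. Over all genes that setting left 597 higher and 96 lower, against 1673 and 572. A minimum of 100 counts left 1095 and 366 among 11637 genes. It removed Hspa1a, and the median of the other 9 genes was -0.53. The low counts of Hspa1a, Hspa1b, Hspb2 and Hspb7 limit what their ratios can show. No paired analysis was possible because each label has 1 library, and for the same reason no library could be left out.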

Other observations

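Small heat shock proteins are known to guard the cytoskeleton, and its genes were unequal between the libraries. Of 12 cytoskeletal genes, all measured, 5 met the 2-fold rule upward and 1 downward, where 11.8% and 4.02% of all genes did, and the median log2 ratio was 0.70. With the assumed biological coefficient of variation of 0.4 the 5 became 2. The summed level of the list was 3320.8 CPM under the control label and 3312.2 CPM under the Pc4-OE label, and its most abundant gene, the cytoplasmic actin Actb, stood at -0.53 (-0.56 to -0.50). Acta1, skeletal muscle actin, stood at 3.88 (2.85 to 5.12), Acta2, smooth muscle actin, at 2.54 and Ttn, the giant sarcomere protein titin, at -2.39 (364 and 69 counts). Acta2 is also one of the fibroblast markers, which lay in the same direction, and their part in these values was not tested.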
